A study of Drosophila melanogaster with 8 samples.

Results

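Long gaps without H1-enriched regions were defined as intervals of 20000 bp or more between consecutive regions of the authors' combined H1 list on 2L, 3L, 3R, 4 and X. There were 961 of them among 11667 gaps between 11672 regions, and they took up 41.5 Mb, or 41.9%, of the 99.2 Mb of these 5 sequences. The combined list held 16190 regions on all its sequences. Arm 2R and all sequences other than these 5 were not analysed here. The data are ChIP-seq of histone H1 in wild-type Oregon-R (Oregon-R-modENCODE) Drosophila melanogaster embryos, aged 14 to 16 h. The series holds 4 H1 immunoprecipitations and 4 inputs, each input numbered like its immunoprecipitation, and all groups share strain, genotype and stage. The stage label names whole embryos, so each list mixes all embryonic cell types. The labels do not say whether the 4 replicates are separate collections of embryos, so the SDs below may be partly technical. The files give region positions and a score, with no read counts, so depth is unknown and a gap means that no region was called, not that H1 was absent.

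H1 is the linker histone. It binds the nucleosome near the entry and exit of the DNA and the linker between nucleosomes, and it helps to compact chromatin. In flies it is known to be abundant in heterochromatin and to be depleted at active regulatory sites, and Drosophila chromosome 4 is a small autosome with many heterochromatin-like properties. Coordinates below are those of FlyBase r5. Genes in the gaps were not analysed here.

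The gaps were chosen by their length in the combined list, so counts and lengths are given as a description with no test. Long gaps were 8.24% of all gaps but held 54.0% of the bases between regions. They were 7.28% of the gaps on 2L (215 of 2952), 7.8% on 3L (231 of 2961) and 6.88% on 3R (253 of 3678). On X they were 12.1% (245 of 2025), and on chromosome 4 they were 33.3% (17 of 51). The autosomal arms 2L, 3L and 3R thus had similar shares, and X and chromosome 4 had higher ones. Arm 2R was left out, so the autosomal arms named below are 2L, 3L and 3R alone. Per Mb the counts lay closer together, at 9.34 on 2L, 9.41 on 3L, 9.07 on 3R, 10.9 on X and 12.6 on chromosome 4.

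The share of sequence inside long gaps separated the sequences more clearly. It was 37.6% of 2L, 38.0% of 3L and 36.7% of 3R, against 54.7% of X and 77.7% of chromosome 4. The median long gap was 32.6 kb on 2L, 32.4 kb on 3L and 33.4 kb on 3R, against 38.7 kb on X and 52.5 kb on chromosome 4. A length of 50 kb was reached by 235 long gaps and a length of 100 kb by 47. Of these 47, X held 20, 3R held 10, 2L held 9, 3L held 5 and chromosome 4 held 3. X thus differed from the 3 autosomal arms together to a similar degree in number and in median length of long gaps. The number was 10.9 against 9.26 per Mb, and the median was 38673 against 32688 bp. Gaps of 100 kb or more differed further, with 20 on the 22.4 Mb of X and 24 on the 75.5 Mb of the arms. For all long gaps the ratio per Mb of X to the arms was 1.18. It was 0.871 when regions under the median score of the combined list were left out. The combined list also covered less of X, 14.9% against 24.8% of the 3 autosomal arms.

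The limit of 20000 bp cut through a continuous range of lengths. The 3 gaps just inside it were 3L 21117883-21137931 at 20049 bp, 3R 7251140-7271192 at 20053 bp and 3L 1499594-1519678 at 20085 bp. The 3 gaps just outside were 3R 17637861-17657843 at 19983 bp, X 19433257-19453220 at 19964 bp and 3R 21871744-21891703 at 19960 bp.

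The longest gap of all was X 1700542-2095867, at 395326 bp. It was followed by X 13059483-13244201 at 184719 bp, X 8918622-9091697 at 173076 bp, 3L 3031502-3203776 at 172275 bp and X 3554016-3724109 at 170094 bp. The next were 3L 416023-581147 at 165125 bp, 2L 14418030-14571494 at 153465 bp, 2L 10196432-10347956 at 151525 bp, X 8423784-8568811 at 145028 bp and X 2100973-2241835 at 140863 bp. X held 6 of these 10, and the first of them was more than 200 kb longer than the second. The longest gap of 3R was 5688144-5821131 at 132988 bp, and that of chromosome 4 was 1176140-1306897 at 130758 bp. The 10 longest gaps together made up 1.85 Mb, or 4.46% of all bases in long gaps.

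The replicate lists were then read at these gaps. X 1700542-2095867 held 0 regions in each of the 4 replicate lists. The region-free interval around its midpoint was 761247 bp in replicate 1, 983708 bp in replicate 2, 399602 bp in replicate 3 and 1009866 bp in replicate 4. The gap was thus empty in every library, and in replicate 3 the nearest regions lay close to its ends. The combined regions at its ends were 1821 and 1597 bp wide. The last of the 10, X 2100973-2241835, lay 5105 bp beyond its right end. It was touched by 1 region of replicate 3, by 112 bp.

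Of the 10 longest gaps, 5 had no region in any replicate list. Those were X 1700542-2095867, X 8918622-9091697, X 3554016-3724109, 3L 416023-581147 and 2L 14418030-14571494, which are also the longest of all long gaps without a replicate region. Each of the other 5 was touched by 1 region of 1 list. X 13059483-13244201 had one of replicate 3 (1396 bp) and 3L 3031502-3203776 had one of replicate 2 (1500 bp). In 2L 10196432-10347956 and X 8423784-8568811 it was replicate 1, with 210 and 508 bp inside the gap.

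The lengths were set against those expected if the same number of regions lay at random in the uncovered bases of each sequence, from a closed formula and with no test. The 961 long gaps were 1.62 times the 592.5 expected, and their bases were 2.50 times the expected 16.6 Mb. On 2L, 3L and 3R the observed counts were 2.32, 1.77 and 2.40 times the expected 92.5, 130.2 and 105.6. On X the count of 245 was close to the expected 241.7, but long gaps took up 54.7% of X where 31.7% was expected. Chromosome 4 had 17 long gaps where 22.5 were expected, and 77.7% of its length in them where 73.0% was expected. At the limit of 20000 bp, the autosomal arms thus had more long gaps than random placement gives, whereas X had about as many and longer ones. Chromosome 4, with 52 regions in all, lay close to random placement in bases. These ratios depend on the minimum length. At 15000 bp the ratio was 1.04 over the 5 sequences and 0.737 on X, and at 30000 bp it was 3.68 and 2.01.

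**Figure D1:**
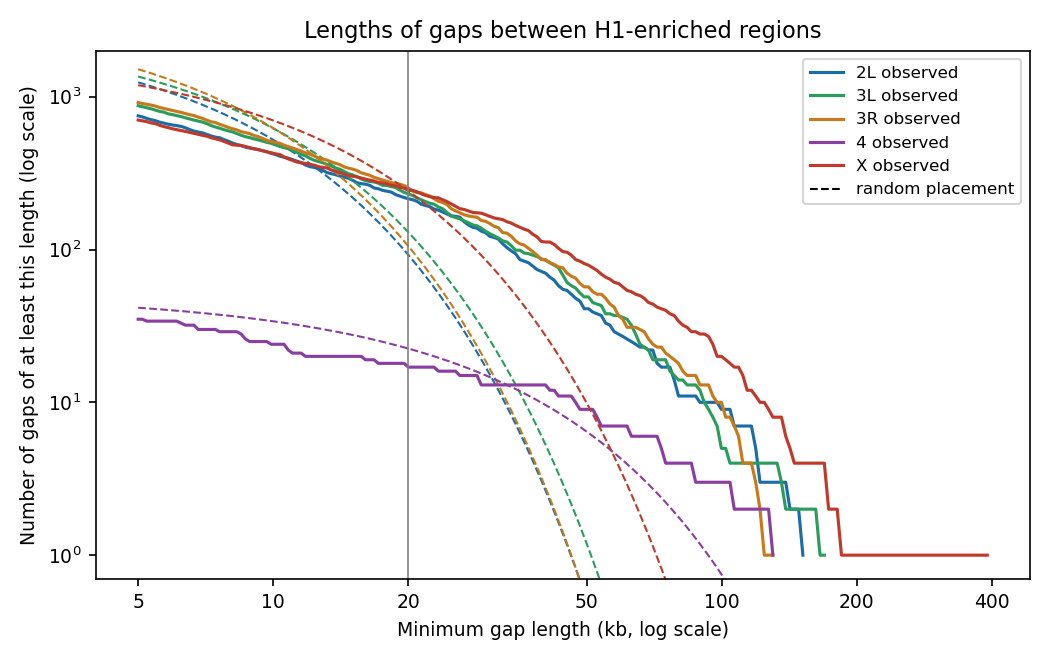
Number of gaps (y, log scale) at or above a minimum length (x, kb, log scale) on each sequence, observed (solid) and expected from random placement of the same number of regions (dashed), with a grey line at 20 kb. The observed curves of 2L, 3L and 3R lie above the dashed ones at 20 kb, that of X meets its dashed curve there, and that of chromosome 4 lies below its own.

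The excess grew with length. At 50 kb or more, 235 gaps stood against 18.6 expected, and at 100 kb or more 47 stood against 0.796. On the autosomal arms those counts were 147 against 2.21 and 24 against 0.000627. A separate density for each window of 1 Mb lowered this excess. With it, 32.9 gaps of 50 kb or more and 1.20 of 100 kb or more were expected over the 5 sequences, and 10.9 and 0.187 on the autosomal arms. The ratios over the 5 sequences were then 7.14 and 39.3, instead of 12.7 and 59.1. The longest gap was 3.10 times the expected longest on 2L, 3.14 times on 3L, 2.69 times on 3R, 5.13 times on X and 1.19 times on chromosome 4. Short gaps were also more frequent than in random placement: 32.7% of all gaps were under 1 kb, where 14.6% was expected. The coefficient of variation of gap length was 2.15 over all gaps, where exponential lengths would have 1. By sequence it was 2.11 on 2L, 1.97 on 3L, 2.08 on 3R, 2.17 on X and 1.31 on chromosome 4. By this measure X was thus no nearer to random placement than the autosomal arms, although its count at 20000 bp was. Regions were therefore placed in tighter groups, with wider intervals between the groups, than a uniform random placement gives. Assembly gaps and repeats were counted as uncovered bases, and their part in the excess was not tested. At 20000 bp the formula with a density per window gave 650.5 long gaps, and the ratio was 1.48.

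Along the chromosomes, long gaps were found in each of the 97 full windows of 1 Mb, from 3 to 16 per window. They took up between 8.45% and 73.8% of a window, with a median of 42.9%. The windows with the highest shares were the first of chromosome 4 at 73.8%, X 2000001-3000000 at 72.7%, X 8000001-9000000 at 70.3%, the first of 3L at 68.6% and X 11000001-12000000 at 67.6%. The windows with the lowest shares were 2L 15000001-16000000 at 8.45%, 3L 23000001-24000000 at 9.50% and 3R 23000001-24000000 at 11.7%. By number, X 19000001-20000000 had the most long gaps, 16, and 2L 15000001-16000000 the fewest, 3. Of the 11 windows with over 60% of their length in long gaps, 8 were on X, and each of the 5 windows under 20% was on 2L, 3L or 3R.

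**Figure D2:**
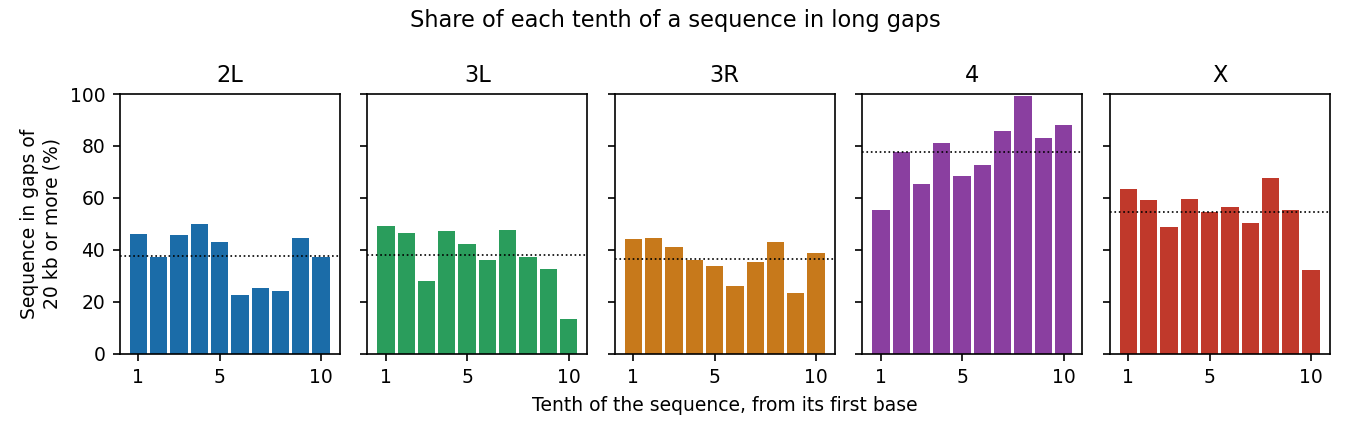
Percent of bases (y) in each of 10 equal parts of a sequence (x, from its first base) that lie in gaps of 20 kb or more, with a dotted line at the value of the whole sequence. Coordinates run towards the centromere on 2L, 3L and X and away from it on 3R; 3L and X have their lowest bars in the last part, at 13.2% and 32.1%, and 2L has its lowest in parts 6 to 8.

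On 3L and X, long gaps took up a much smaller share near the centromere than in the rest of the arm. In the 2 Mb of arm sequence next to the centromere they took up 11.5% of 3L and 30.2% of X, against 39.1% and 57.0% of the arm between the last 2 Mb and the first Mb. On 2L the share near the centromere was 31.8% against 37.3%. On 3R the direction was the opposite, at 46.1% against 36.4%. In the 1 Mb at the telomere end, long gaps took up 68.6% of 3L, 58.5% of X, 55.6% of 2L and 25.5% of 3R. The distal Mb of 2L and 3L thus held more gap sequence than the rest of the arm, and that of 3R held less. On X it was close to the rest, at 58.5% against 57.0%.

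Chromosome 4 consisted mostly of long gaps. The 17 gaps ranged from 22936 to 130758 bp. Those of 100 kb or more were 60410-165264 (104855 bp), 961941-1091001 (129061 bp) and 1176140-1306897 (130758 bp). The last had 1 region of replicate 4, and 388979-429667 (40689 bp) had 1 region of replicate 3. The other 15 gaps held no region in any replicate list. The replicate lists had between 1 and 6 regions on the whole chromosome. The widest stretch between consecutive long gaps, 241643-311807, spanned 70.2 kb and held 9 regions.

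Long gaps followed each other more often than in a random order of the gaps of a sequence. In 211 cases, 1 region alone stood between 2 long gaps, where a random order gives 85.7, a ratio of 2.46. The ratio was 2.37 on 2L (37 against 15.6), 2.95 on 3L (53 against 17.9), 2.37 on 3R (41 against 17.3) and 2.54 on X (75 against 29.5). On chromosome 4 the count of 5 was near the 5.33 of a random order. With the order taken at random within windows of 1 Mb, the ratio over the 5 sequences was 2.07 (196 against 94.8). The clustering on the 4 larger sequences was thus also present within windows of 1 Mb. In all, 378 long gaps (39.3%) belonged to runs of 2 or more, and on X 128 of 245 (52.2%) did.

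The longest run had 5 long gaps, at X 8383029-8680897. It spanned 297.9 kb, of which the 4 regions in it covered 1.74%, and its gaps ranged from 23705 to 145028 bp. Runs of 4 numbered 6, of which the longest was 3L 7894258-8131849, 237.6 kb with 1.87% covered. On the other sequences the longest runs had 3 gaps, at 2L 10196432-10450759 (254.3 kb), 3R 9781881-9960369 (178.5 kb) and 4 859555-1091001 (231.4 kb). Such runs are nearly region-free stretches longer than each of the gaps in them. No run, however, spanned as much as the longest single gap, X 1700542-2095867 at 395326 bp. The 500 kb with the most bases in long gaps lay at X 1710001-2210000, where 99.0% of the bases were in 2 long gaps and 2 combined regions covered 0.522%. On the autosomal arms the corresponding shares were 85.2% at 2L 40001-540000, 87.2% at 3L 410001-910000 and 87.2% at 3R 19600001-20100000.

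**Figure D3:**
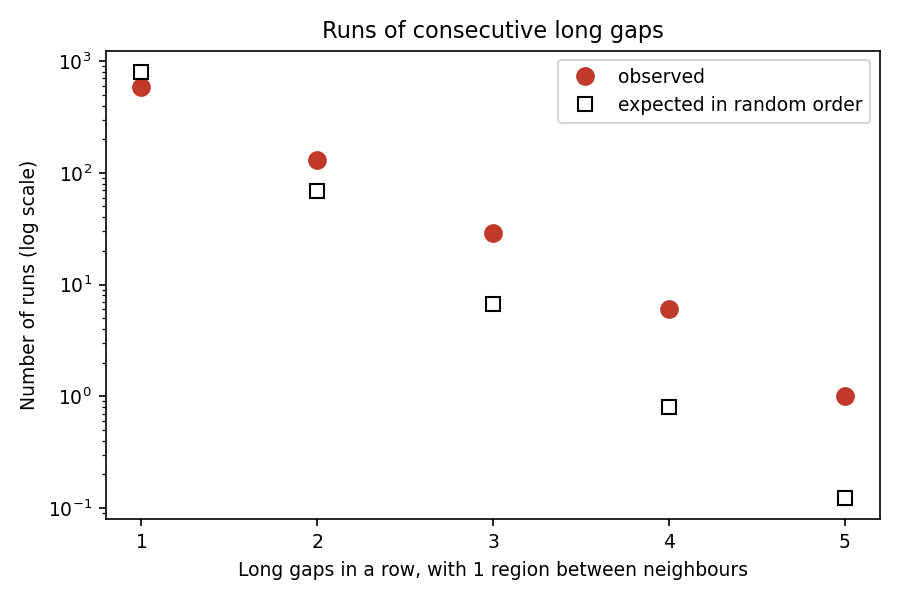
Number of runs (y, log scale) by the number of long gaps that follow each other with 1 region between neighbours (x), observed and expected when the gaps of each sequence are in random order. Single long gaps number 583 against 798.4 expected, and runs of 2, 3, 4 and 5 number 131, 29, 6 and 1 against 69.2, 6.74, 0.801 and 0.124.

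Between consecutive long gaps lay stretches with a median of 5 regions (quartiles 2 and 15) and a median span of 26.9 kb. A stretch held at least 50 regions in 41 cases, of which 16 were on 3R, 13 on 2L, 10 on 3L and 2 on X. The widest were 2L 15442615-16261207, at 818.6 kb with 181 regions, and 3R 2991191-3736737, at 745.5 kb with 173 regions. On X the widest was 20537545-20895245, at 357.7 kb with 70 regions.

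The regions that stood between 2 long gaps were narrower than the others. The 211 such regions had a median width of 1279 bp, against 1344.5 bp for the 1500 regions with a long gap on 1 side and 1627 bp for the 9961 with none. On the autosomal arms alone these medians were 1343, 1354.5 and 1652 bp, so the first 2 kinds hardly differed there. On X they were 1176, 1316 and 1500 bp. Replicate lists touched 41 of the 211 (19.4%), 416 of the 1500 (27.7%) and 4729 of the 9961 (47.5%). These shares were 24.4%, 28.7% and 49.7% on the autosomal arms and 12.0%, 25.6% and 36.4% on X. Narrow regions are touched less readily, and the part of width in this order was not tested. Regions touched by 3 or more replicate lists numbered 0 of the 211, 9 of the 1500 and 418 of the 9961. The authors' median score was 0.419, 0.407 and 0.398 in the same order. On the autosomal arms alone the scores were 0.392, 0.397 and 0.391, and on X they were 0.483, 0.465 and 0.447. The order of scores thus held on X, where scores were higher in general, and not on the autosomal arms, and the quartiles of the 3 kinds of region overlapped throughout.

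The replicate lists show how many of the gaps were empty in single libraries. The combined list is made for the same 4 libraries, so these values are not independent of the rule and no test was made. Of the 961 long gaps, 566 (58.9%, exact binomial 95% interval 55.7 to 62.0%, for the counting of gaps alone) had no region in any replicate list. A further 321 (33.4%) were touched in 1 list, 66 (6.87%) in 2, 8 (0.832%) in 3 and 0 in all 4. The binomial interval treats the gaps as independent, although 39.3% of them lay in runs, and it does not measure the spread between replicates. Among gaps of 10 kb to just under 20 kb, 542 of 913 (59.4%) were free, nearly the same share, although long gaps offer more sequence to be touched. By sequence the free share of long gaps was 62.8% on 2L, 54.1% on 3L, 55.7% on 3R, 61.2% on X and 88.2% on chromosome 4. The free gaps added up to 23.4 Mb. The replicate lists were sparse, with 2068, 1606, 2089 and 2436 regions on the 5 sequences, against 11672 combined regions. Of the 9961 combined regions with no long gap beside them, the replicate lists touched 4729 (47.5%). Many called regions were thus also free of replicate regions, so the free share alone says little about emptiness.

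Leaving out replicates 1 to 4 in turn gave free shares of 66.3%, 67.0%, 69.8% and 65.9%, so the 58.9% rests on all 4 lists, and replicate 3 took away the most. When a replicate region had to have at least 50% of its width in the gap, 74.8% of the long gaps were free. Replicates 1 to 4 touched 104, 113, 160 and 100 long gaps. In replicate 1, 107 regions touched a long gap and 26 lay wholly in one, and in replicate 4 these numbers were 102 and 28. In replicate 2 they were 120 and 93, and in replicate 3 they were 173 and 113. Most of the regions of replicates 1 and 4 that touched a long gap therefore reached over its edge, and most of those of replicates 2 and 3 lay inside.

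Coverage by replicate regions was far lower in long gaps than elsewhere. Replicates 1 to 4 covered 0.127%, 0.365%, 0.482% and 0.134% of the bases in long gaps. Outside the long gaps they covered 5.85%, 4.25%, 5.61% and 7.00%. The log2 ratio of the shares was -5.52, -3.54, -3.54 and -5.70, with a mean of -4.58 ± 1.20 (SD, n = 4). It was negative in each replicate, and its size fell into the pairs 1 and 4, and 2 and 3. The pairs of experiment numbers in the labels, 1715 with 1725 and 2291 with 2292, each contain one of either kind, with means of -4.53 and -4.62. The regions of any replicate list together covered 1.10% of the bases in long gaps and 19.2% of those outside.

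The outside includes the combined regions, which were made from the same libraries, so the gaps under 20000 bp are the nearer comparison. There, replicates 1 to 4 covered 0.568%, 2.81%, 3.43% and 0.661%. The log2 ratio of long to shorter gaps was -2.16, -2.94, -2.83 and -2.30, with a mean of -2.56 ± 0.39 (SD, n = 4). Over the 5 sequences together, long gaps were covered less than shorter gaps in 4 of 4 replicates, by 4.46-fold to 7.69-fold. Distance from the gap edge was not matched in these values. At matched distances up to 5 kb, mean coverage in gaps of 10 kb to just under 20 kb was 1.29 to 1.71 times that of long gaps. Replicate 1 went the other way in the first 2 kb, as given below. On the autosomal arms alone the mean was -2.44 ± 0.44 and on X it was -2.70 ± 0.33 (SD, n = 4). Chromosome 4 had no common direction in the 4 replicates. Its long gaps were covered at 0%, 0%, 0.194% and 0.142% in replicates 1 to 4, and its shorter gaps at 0%, 1.51%, 0.249% and 0.0423%. Its long gaps were thus covered less in replicates 2 and 3, more in replicate 4 and equally in replicate 1. Only 1 to 6 regions per list stood behind these values.

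**Figure D4:**
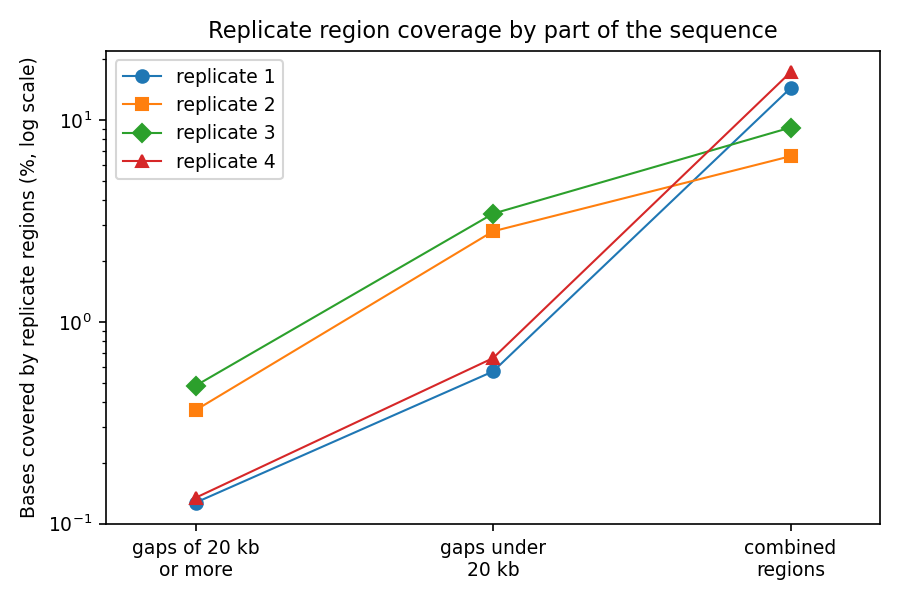
Percent of bases covered by the regions of each replicate list (y, log scale) in long gaps, in gaps under 20 kb and in combined regions. Coverage goes up from left to right in each replicate, and replicates 1 and 4 lie below replicates 2 and 3 in both kinds of gap and above them in combined regions.

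Within the long gaps, coverage by replicate regions was highest at the edges. Each edge borders a combined region, so a replicate region that overlaps that combined region can reach into the first kb. Such regions were not separated from those wholly inside a gap, so a peak at the edge is partly built into the comparison. In the first kb from an edge they covered 1.17% ± 0.43 of the bases, between 1 and 2 kb 0.66% ± 0.35, between 2 and 5 kb 0.43% ± 0.34, between 5 and 10 kb 0.23% ± 0.19 and beyond 10 kb 0.15% ± 0.11 (SD, n = 4). Coverage was highest in the first kb in each replicate, although in replicate 2 the first and the second kb differed little, at 0.976% and 0.969%. In replicate 4 the fall was not steady, with 0.0334% between 5 and 10 kb and 0.0875% beyond 10 kb. In gaps of 10 kb to just under 20 kb the values at matched distances were 1.51% ± 0.61, 1.07% ± 0.90 and 0.73% ± 0.63 up to 1, 2 and 5 kb (SD, n = 4). The means in these shorter gaps were 1.29, 1.62 and 1.71 times those of the long gaps. In the first kb replicate 1 went the other way, with 0.987% in long gaps and 0.835% in the shorter ones, and so it did between 1 and 2 kb, at 0.363% and 0.155%. The comparison at matched distance thus had no common direction in the 4 replicates for the first 2 kb. Between 2 and 5 kb the shorter gaps were covered more in 4 of 4 replicates.

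**Figure D5:**
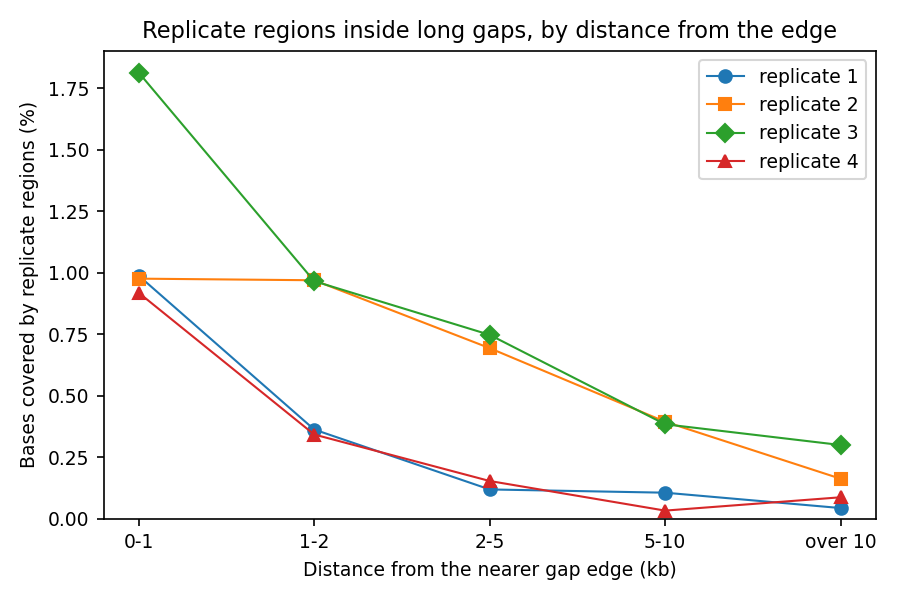
Percent of bases covered by replicate regions (y) by distance from the nearer edge of the long gap (x, kb), for each replicate. Each curve is highest in the first kb, between 0.918% and 1.81%, and the bases beyond 10 kb are covered at 0.0438% to 0.300%. Regions that reach over a gap edge are included.

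Mean coverage by replicate lists was also lower in longer gaps. It was 0.41% ± 0.27 in gaps of 20 to 30 kb, 0.29% ± 0.18 in those of 30 to 50 kb, 0.24% ± 0.16 in those of 50 to 100 kb and 0.12% ± 0.09 in those of 100 kb or more (SD, n = 4). In replicates 1, 2 and 3 coverage in the gaps of 100 kb or more was 0.0454%, 0.138% and 0.239%, and in replicate 4 it was 0.0764%. Each was the lowest value of its replicate. Coverage fell from class to class in replicates 2 and 3, but not in the other replicates. In replicate 1 it rose from 0.104% at 30 to 50 kb to 0.111% at 50 to 100 kb. In replicate 4 it rose from 0.132% at 20 to 30 kb to 0.173% at 30 to 50 kb. A smaller part of a longer gap lies near an edge, and that part was not taken out of these values. The share of gaps free in all lists was 62.2%, 61.5%, 49.5% and 51.1% in the same classes. Even at 100 kb or more, 24 of 47 gaps held no replicate region.

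The sequence beside the gaps was moderately covered. In the 50 kb on each side, the combined list covered a median of 21.0% for gaps of 20 to 30 kb, 18.3% for 30 to 50 kb, 16.8% for 50 to 100 kb and 20.7% for 100 kb or more. For gaps of 10 to 20 kb the median was 22.3%, and for those of 5 to 10 kb it was 25.5%. The quartiles of these classes overlapped. Single gaps differed widely: 3L 3031502-3203776 was flanked by sequence covered at 42.7%, and X 8423784-8568811 by sequence covered at 4.57%.

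The long gap with the most replicate regions was 3L 6389034-6450797, of 61764 bp. It held 0, 1, 2 and 1 regions of replicates 1 to 4, which covered 0, 1437, 2953 and 233 bp of it. Replicate regions that lay wholly in long gaps had scores like those of the other regions of their list. The ratio of the median scores was 1.02, 0.960, 0.995 and 1.00 in replicates 1 to 4, a mean of 0.993 ± 0.023 (SD, n = 4). Their median width was 0.947 ± 0.018 times (SD, n = 4) that of the other regions. Of these regions, 0 of 26, 3 of 93, 3 of 113 and 2 of 28 overlapped a region of another replicate list. For regions wholly in gaps under 20000 bp these counts were 2 of 36, 31 of 287, 39 of 348 and 4 of 53. Over all regions of replicates 1 to 4 on the 5 sequences, 43.8%, 46.0%, 43.6% and 41.3% overlapped another list. Gaps are by rule free of combined regions, and the combined list is made for the same libraries, so nothing is read from the low overlap in gaps of either kind.

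Replicate regions that touched no combined region numbered 62, 380, 461 and 81 in replicates 1 to 4. Those wholly in long gaps came to 0.626, 2.24, 2.72 and 0.674 per Mb of long gap. In gaps under 20000 bp they came to 1.02, 8.13, 9.85 and 1.5 per Mb. The density was thus lower in long gaps in 4 of 4 replicates, although many of the shorter gaps are too short to hold a replicate region, the narrowest of which was 1301 bp. When all replicate regions were added to the combined list, 926 gaps of 20000 bp or more were left. They took up 38.8 Mb, or 39.1% of the 5 sequences, and X 1700542-2095867 was still the longest.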

How the data were processed

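The submitters' processing notes name Bowtie 0.12.7, and coordinates are on FlyBase r5, per the file headers. Each deposited list holds region positions with a score from the authors. Not given in the sources used here are the scale of that score, the region caller, its thresholds and the way replicates were combined. Scores were compared within a list only. The lists hold no counts, so depth is unknown. Inputs were not analysed here. The members and lists were chosen with earlier results of these data known.

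Gaps were the bases between consecutive regions of the combined list. Intervals before the first and after the last region were left out, and assembly gaps and repeats were not corrected for. For n regions in F uncovered bases, the expected number of gaps of x bases or more was (n - 1) times (1 - x/F) to the power n. For k long gaps among n gaps, k(k - 1)/n adjacent pairs were expected. Both formulas were tested on simulated data. An overlap of 1 bp counted as touching. Computations used numpy 2.4.6 and pandas 2.3.3 under Python 3.11.15, intervals used scipy 1.17.1, and plots were drawn with matplotlib 3.10.9. The gaps named are the 10 longest, the longest of each sequence and run, the 3 on each side of the threshold, the 5 longest without replicate regions, the one with the most of them, and the windows of 1 Mb with the most and fewest. The stretches of 500 kb (in steps of 10 kb), the edge distances, the stretches between gaps and the gaps of chromosome 4 were chosen after the values were seen.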

Additional observations from a re-analysis of the deposited data

Results flagged for a closer look

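Of 29 measures per replicate, 1 had a replicate far from the other 3, where chance would give 1.45. Replicate regions that did not lie wholly in a long gap had a median width of 1513 bp in replicate 2, against 1531.5 to 1534.5 bp in the others.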

How the results depend on the processing

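Of 43 recomputed values for 6 results, 30 stayed within the limits set, 12 moved beyond them and 1 reversed. The limit was 1.5 times for counts and their ratios, 1 SD of the replicates for log2 coverage, and the 95% binomial interval for the free share. The number of long gaps was 588 at a minimum of 30000 bp, by construction. The free share was 74.8% when 50% of a replicate region had to lie in the gap, 65.9% with equal numbers of top-scoring regions per list, 76.6% with replicate regions at or above the median score, and 65.9 to 69.8% without 1 replicate, all settings that use fewer replicate regions. The log2 coverage ratio of -4.58 was -2.56 against gaps under 20000 bp, a comparison chosen after seeing the data, and -4.92 to -4.20 without 1 replicate. The ratio of observed to expected long gaps, 1.62, was 1.04 at 15000 bp, 3.68 at 30000 bp and 1.01 on X alone. The ratio of long gaps per Mb on X to the autosomal arms turned from 1.18 to 0.871 with combined regions at or above the median score, and the cause was not tested. No paired analysis was possible because the region lists used here are of 1 group, the immunoprecipitations, and the inputs that share their replicate numbers have no list among them. Unknown depth limits every statement on empty gaps.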

Other observations

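The intervals outside the first and the last combined region were not counted as gaps. They measured 25146 and 25829 bp on 2L, 62904 and 21104 bp on 3L, 19774 and 33697 bp on 3R, 41694 and 25191 bp on X, and 2968 and 6281 bp on chromosome 4. In the replicate lists, the longest gap on X was 787754 bp in replicate 1, 1021587 bp in replicate 2, 873361 bp in replicate 3 and 1009866 bp in replicate 4. In replicate 4 it is the one around X 1700542-2095867.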
